A study of Homo sapiens with 16 samples.

Results

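The genes described here are 41 genes of mitosis and of the G2/M transition, chosen by name for their known roles and read from gene expression arrays of 8 human lymphoid cell lines. All 41 listed symbols had a probe set with that single symbol, and they make up 41 of the 11963 genes measured. Where a gene had several probe sets, the one with the highest mean over all 16 arrays stood for it.

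Of the T-cell type there were 4 lines derived from T-cell leukaemias, Molt-3, Molt-4, Jurkat and CCRF-CEM. The 4 lines of anaplastic large cell lymphoma (ALCL) were JB6, Karpas 299, FE-PD and SU-DHL-1. All 8 were profiled untreated and after combined treatment with 2 drugs. 5-aza-2'-deoxycytidine (5-aza-dC), a nucleoside analogue that traps DNA methyltransferases, was given at 1 µM over 6 days and renewed with the medium on day 2 and day 5. Trichostatin A (TSA), a histone deacetylase inhibitor, was present at 625 nM for the last 24 h. No vehicle is named for the untreated cultures. Each line gave 1 untreated and 1 treated array, so a group holds n = 4 lines and no line was repeated within a condition. Molt-3 and Molt-4 are sister lines from 1 patient, so they are not independent sources. The question asked of these arrays was how removal of DNA methylation together with histone acetylation changed expression in each cell type, and here it is asked of the mitotic genes.

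Cells enter mitosis when cyclin A and cyclin B activate the kinase CDK1, after which Aurora and Polo kinases, kinesin motors and kinetochore proteins build the spindle and attach chromosomes to it. The spindle assembly checkpoint holds cells at metaphase until every kinetochore is attached, and the anaphase-promoting complex then destroys securin and cyclin B. Most genes of this group are transcribed together late in the cell cycle, from promoters with CCAAT boxes, bound by NF-Y, and a cell cycle genes homology region (CHR), bound by the DREAM complex as a repressor and by B-MYB and FOXM1 complexes as activators. Their RNA level in a culture is known to follow the share of cells in G2 and mitosis. In these bulk samples fewer G2/M cells and less RNA per cell cannot be told apart.

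Motif letters were counted in the members' promoters. RefSeq promoter windows (GRCh38.p14, from 250 bases before to 50 bases after the start, 1 window per gene) matched 34 of the 41 members; FOXM1, TTK, AURKA, BIRC5, TPX2, UBE2C and BUB3 were not matched. The CHR was searched as TTTGAA or TTCGAA on both strands, so that TTCAAA also counts, and the CCAAT box as CCAAT or ATTGG. The 300-base window held a CHR in 23 of 34 members (67.6%), against 16.6% of the 27305 genes with a window. A CCAAT box was found in 27 members (79.4%), against 35.7% of all genes, and both motifs in 21 members (61.8%), against 6.58%. Several CCAAT boxes, 2 or more, stood in 17 members (50%), against 11.3%. A CHR was present in 19 of the 26 matched members that fell in the T-cell lines and in 4 of the 8 that did not pass there. For the CCAAT box these counts were 21 of 26 and 6 of 8. Neither split was tested. A match describes letters in a window; it shows neither binding nor a cause.

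The 250 bases before the start are shown for 6 members, those with the smallest adjusted p for treatment in the T-cell lines among the 28 members with either motif in that stretch. Each sequence is on the gene's own strand, 5′ to 3′, ending at the base before the start, with CHR and CCAAT letters in capitals. The intervals are CCNA2 at chr4:121823884-121824133 (minus strand), ZWINT at chr10:56361260-56361509 (minus), AURKB at chr17:8210226-8210475 (minus), PLK1 at chr16:23678639-23678888 (plus), BUB1B at chr15:40160819-40161068 (plus) and CENPF at chr1:214602945-214603194 (plus).
CCNA2: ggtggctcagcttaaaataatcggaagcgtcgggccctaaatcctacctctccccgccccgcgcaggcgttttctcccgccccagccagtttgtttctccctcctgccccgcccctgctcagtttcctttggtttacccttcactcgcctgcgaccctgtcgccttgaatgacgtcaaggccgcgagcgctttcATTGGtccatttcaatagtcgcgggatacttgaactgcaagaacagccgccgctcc
ZWINT: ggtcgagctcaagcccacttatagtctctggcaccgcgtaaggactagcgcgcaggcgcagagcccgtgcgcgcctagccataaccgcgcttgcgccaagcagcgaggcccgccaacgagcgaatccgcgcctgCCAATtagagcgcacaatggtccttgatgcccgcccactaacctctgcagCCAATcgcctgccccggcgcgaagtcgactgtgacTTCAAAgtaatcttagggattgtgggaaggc
AURKB: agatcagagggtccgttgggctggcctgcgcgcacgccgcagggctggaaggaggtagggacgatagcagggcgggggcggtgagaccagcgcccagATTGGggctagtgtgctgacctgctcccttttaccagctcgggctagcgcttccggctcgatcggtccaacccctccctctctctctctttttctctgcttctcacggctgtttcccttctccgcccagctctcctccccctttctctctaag
PLK1: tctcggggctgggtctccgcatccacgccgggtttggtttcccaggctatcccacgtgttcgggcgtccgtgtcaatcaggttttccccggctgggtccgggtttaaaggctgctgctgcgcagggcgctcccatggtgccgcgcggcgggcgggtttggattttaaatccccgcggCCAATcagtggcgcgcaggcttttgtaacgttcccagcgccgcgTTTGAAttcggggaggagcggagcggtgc
BUB1B: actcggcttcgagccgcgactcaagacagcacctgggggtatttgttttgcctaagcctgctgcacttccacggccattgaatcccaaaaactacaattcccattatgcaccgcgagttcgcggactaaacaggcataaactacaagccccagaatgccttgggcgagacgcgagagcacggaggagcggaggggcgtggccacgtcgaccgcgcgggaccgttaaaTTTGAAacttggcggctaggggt
CENPF: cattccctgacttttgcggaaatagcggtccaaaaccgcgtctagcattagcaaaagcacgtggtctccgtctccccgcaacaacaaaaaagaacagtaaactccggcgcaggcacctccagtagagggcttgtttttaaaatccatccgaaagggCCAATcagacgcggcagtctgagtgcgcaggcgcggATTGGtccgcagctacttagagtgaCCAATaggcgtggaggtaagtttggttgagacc
In PLK1 the CHR began 29 bases and the CCAAT box 73 bases before the start, and in ZWINT the CHR began 31 bases before it with CCAAT boxes at 66 and 116 bases. CENPF showed 3 CCAAT boxes at 33, 58 and 94 bases, and its CHR lay after the start, outside the printed stretch. CCNA2 had a CCAAT box at 56 bases, AURKB a CCAAT box at 153 bases and BUB1B a CHR at 23 bases. Each lacked the other motif in the letters searched. Variant forms of the CHR were not searched, so a CHR in CCNA2 or AURKB is not excluded. No printed motif overlapped another.

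All values are log2 levels from the deposited table, so a difference of -1 is a 2-fold fall. Changes are given as treated minus untreated with the standard error of the limma fit, and a gene is said to fall only where its Benjamini-Hochberg adjusted p over all 11963 genes was below 0.05. Values of 4 lines follow the order CCRF-CEM, Jurkat, Molt-3, Molt-4 for T-cell lines and FE-PD, JB6, SU-DHL-1 and then Karpas 299 for ALCL lines. Levels of different genes come from different probes and are not set against each other. Without detection calls, a change that ends at a low level, as for AURKB, NDC80, KIF11 and MAD2L1 in treated ALCL lines, is a difference of measured values whose true size may be larger.

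The marker means separated the cell types as labelled, but several single markers did not. The mean over 4 ALCL marker genes was 10.30 to 11.97 in untreated ALCL lines and 6.22 to 6.77 in untreated T-cell lines, and the mean over 9 T-cell markers was 9.62 to 10.33 in untreated T-cell lines and 7.27 to 7.94 in untreated ALCL lines. ALK, one of the ALCL markers, was at 6.39 in untreated FE-PD, within the 6.09 to 6.40 of the untreated T-cell lines, and at 10.0 to 11.1 in the other 3 ALCL lines. Among the T-cell markers, CD5 did not pass between the untreated cell types (-0.11 ± 0.26, limma adjusted p = 0.817). Untreated FE-PD had more CD247 (10.80) than CCRF-CEM (9.92), and untreated CCRF-CEM had less CD2 (6.61) than JB6 (7.32). The other T-cell markers did not overlap between the untreated cell types. With treatment the T-cell marker mean was 7.74 to 8.27 in the T-cell lines. Lists of B-cell, myeloid, erythroid, epithelial and mesenchymal markers (1 to 4 genes each) had means of 5.16 to 8.01 over all groups. Within the myeloid list, CSF1R was at 8.54 to 9.81 in untreated ALCL lines and 6.30 to 6.98 in untreated T-cell lines. That difference passed (2.39 ± 0.27, limma adjusted p = 0.00197), while CD14 and LYZ did not. On 5 treated arrays, those of Molt-3, Molt-4, FE-PD, JB6 and SU-DHL-1, the array's 28S ribosomal RNA control probe set stood 5.46 to 7.40 above the untreated array of the same line. In CCRF-CEM, Jurkat and Karpas 299 it differed by -0.81 to 0.64. Results are therefore also given for both sets of lines.

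Treatment lowered most mitotic genes in both cell types. In the T-cell lines 33 of 41 members fell and 0 rose, where 20.2% of all genes fell and 21.7% rose. In the ALCL lines 33 of 41 fell and 0 rose, where 13.4% of all genes fell and 8.04% rose. The median member change was -1.27 in T-cell lines (range -2.40 to -0.39) and -1.71 in ALCL lines (range -2.84 to -0.39), while the median over all genes was 0.14 and 0.09. In both cell types 29 members fell. CDC25B, CDC25C, CENPA and CDC20 passed in the T-cell lines alone and KIF2C, NUSAP1, DLGAP5 and TOP2A in the ALCL lines alone, without a difference between the cell types that passed for any of these 8 genes. CKS2, PTTG1, NEK2 and CENPE passed in neither.

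**Figure D1:**
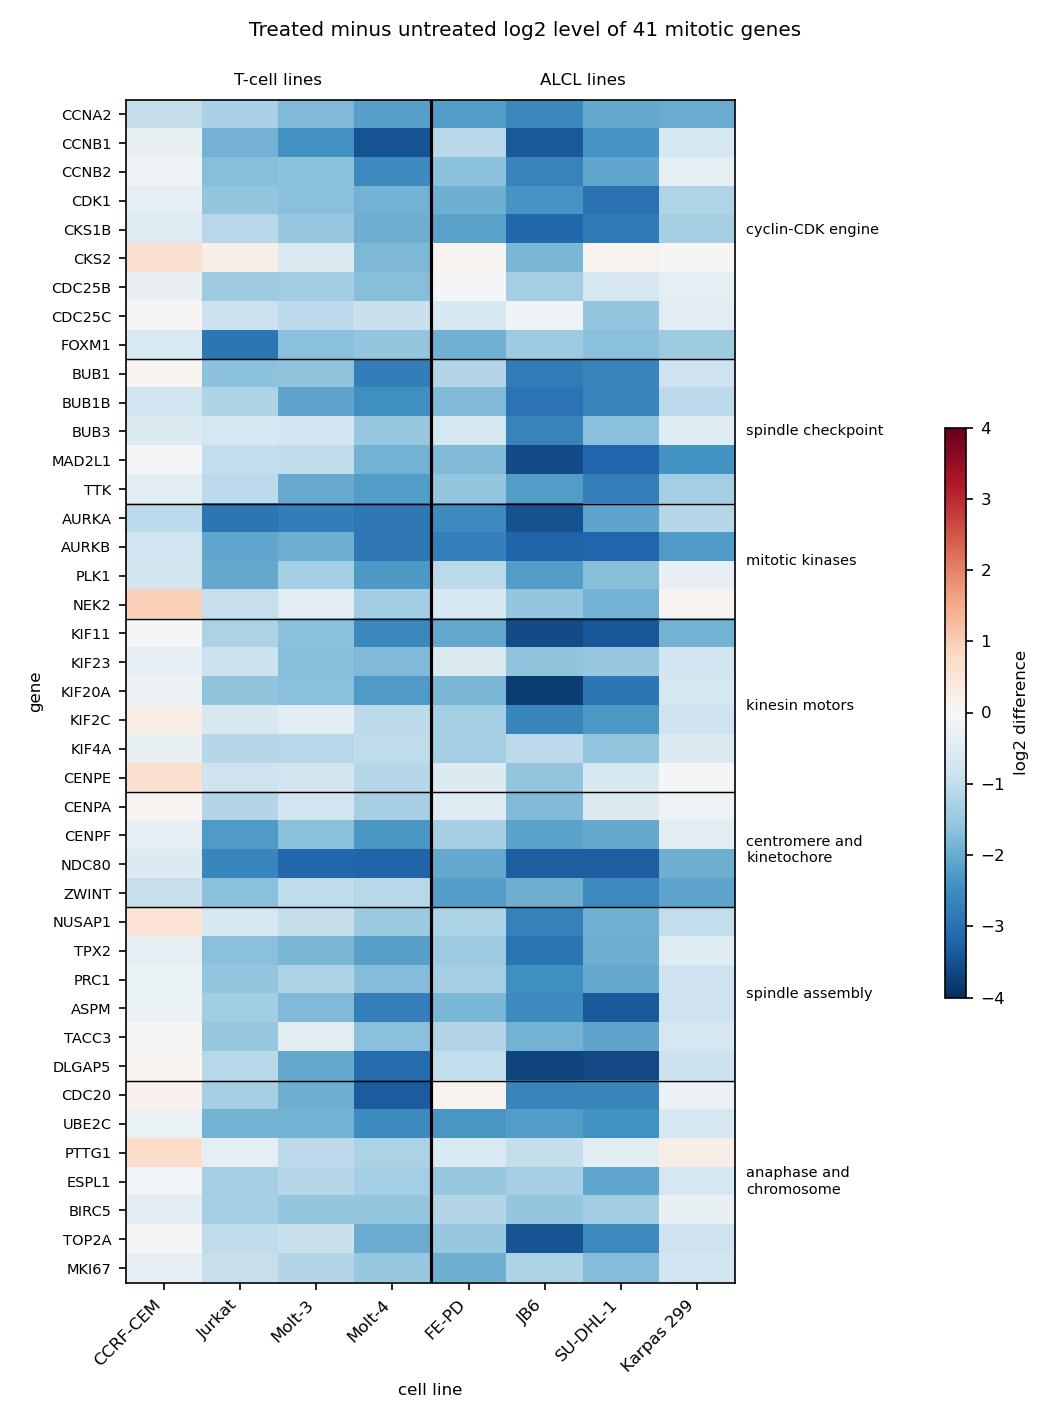
Treated minus untreated log2 difference of each of the 41 mitotic genes (rows, grouped by role) in each of the 8 cell lines (columns); blue is lower after treatment and red is higher. The CCRF-CEM column is pale, with 12 genes above 0, while JB6 and Molt-4 are blue throughout.

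Genes of high level fell more often than genes at large, and the mitotic genes are of high level. The median untreated level of the members was 9.53, against 7.22 for all genes. Of the 1333 genes whose untreated mean lay within the middle 50% of the members' (8.96 to 10.11), 669 fell and 124 rose in the T-cell lines, with a median change of -0.55. In the ALCL lines 488 of these fell and 80 rose, with a median of -0.41. The members' medians were thus lower than those of genes of like level in both cell types. In every line the SD of all values was smaller on the treated array, with changes of -0.30 to -0.02. The part of this narrower spread in the fall of high-level genes was not tested.

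The direction was the same in most single lines. Treated was below untreated in all 8 lines for 29 of 41 members, against 14% of all genes. It was below in all 4 T-cell lines for 29 and in all 4 ALCL lines for 37. These last criteria are less strict, and the share of all genes that meets them was not counted. Every treated T-cell line was below every untreated T-cell line for 23 members, against 15.7% of all genes. The corresponding separation in the ALCL lines held for 33 members, against 8.75%. Of the 14 members with several probe sets, the 26 other probe sets changed in the same direction as the chosen one in 20 cases in each cell type, and 16 fell in T-cell lines and 18 in ALCL lines. In T-cell lines another probe set of BUB1 (0.57 ± 0.16) and another of CDC25C (0.75 ± 0.16) rose, with limma adjusted p below 0.05 over all probe sets.

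The scaling of the arrays moved these counts. Scaled to the hybridization spike controls, 41 members fell in T-cell lines and 39 in ALCL lines. With 9 reference genes 30 and 33 fell, and with quantile normalization 23 and 34. In the deposited values the 9 reference genes were not level. Of these, 4 fell in T-cell lines (median change -0.41) and 1 in ALCL lines (median -0.32), so scaling to them raised the other genes. Over all genes the split of falls and rises in the T-cell lines was 2417 and 2601, but 2943 and 63 with the spike controls, 2721 and 1533 with median centring and 1448 and 4166 with the reference genes. In the ALCL lines it was 1604 and 962, but 1974 and 73 with the spike controls and 857 and 1815 with the reference genes. The all-gene median moved to -0.54 in T-cell lines and -0.52 in ALCL lines with the spike controls, and to 0.44 and 0.38 with the reference genes. Under each of these scalings all members had a mean below 0 in both cell types, except CKS2 with quantile normalization in the T-cell lines (0.02).

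The cyclin-CDK engine drives entry into mitosis. Of its 9 members 8 fell in the T-cell lines (median change -1.37) and 6 in the ALCL lines (median -1.70). CCNA2, cyclin A2, which acts in S phase and G2, stood at 9.93, 9.07, 10.4 and 10.29 in the untreated T-cell lines and 8.96, 7.77, 8.64 and 8.11 in the treated ones. Its ALCL levels were 8.75, 9.8, 9.05 and 9.1 untreated and 6.53, 7.23, 7.02 and 7.1 treated. Treated values lay below all untreated values within each cell type, the treated ALCL lines were the lowest of all, and CCNA2 changed by -1.55 ± 0.19 in T-cell lines (2.93-fold, adjusted p = 0.000386) and by -2.21 ± 0.19 in ALCL lines (4.61-fold, adjusted p = 0.000129).

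CCNB1, the mitotic cyclin B1, was 9.8, 10.31, 10.09 and 10.45 untreated and 9.49, 8.43, 7.66 and 7.0 treated in the T-cell lines. In the ALCL lines CCNB1 was 8.65, 10.25, 10.3 and 8.91 before and 7.54, 6.9, 7.93 and 8.19 after treatment. CCRF-CEM hardly moved while Molt-4 lost over 3 log2 units, yet the treated and untreated groups did not overlap. CCNB1 changed by -2.02 ± 0.50 (adjusted p = 0.0113) and -1.89 ± 0.50 (adjusted p = 0.0234). CCNB2, its partner isoform, and CDK1, the kinase both activate, changed by -1.51 ± 0.39 and -1.37 ± 0.30 in T-cell lines and by -1.7 ± 0.39 and -2.12 ± 0.30 in ALCL lines. FOXM1, a transcription factor for this gene group, was 9.34, 9.83, 9.46 and 9.36 untreated and 8.74, 6.93, 7.78 and 7.79 treated in T-cell lines, a change of -1.69 ± 0.28, with Jurkat the lowest after treatment. The FOXM1 change in ALCL lines was -1.61 ± 0.28.

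CKS1B and CKS2 encode the pair of small CDK-binding subunits, of which CKS1B fell in both cell types and CKS2 passed in neither. CKS1B changed by -1.27 ± 0.30 in T-cell lines and -2.36 ± 0.30 in ALCL lines. CKS2 stood at 11.16, 10.49, 11.14 and 11.09 untreated and 11.77, 10.72, 10.56 and 9.3 treated in T-cell lines, and at 10.52, 11.03, 10.07 and 9.35 untreated and 10.63, 9.2, 10.17 and 9.42 treated in ALCL lines. Its groups overlapped, and Molt-3, Molt-4 and JB6 were the only lines lower after treatment. The mean change was -0.39 ± 0.40 (adjusted p = 0.442) and -0.39 ± 0.40 (adjusted p = 0.501). CDC25B and CDC25C, phosphatases that activate CDK1, fell by 1.20 and 0.69 in T-cell lines. Their ALCL changes of -0.61 ± 0.25 and -0.69 ± 0.24 did not pass. The CDC25C call in T-cell lines was lost in 10 of 20 alternatives. Tested over all 22283 probe sets, another CDC25C probe set rose in T-cell lines (0.75 ± 0.16, limma adjusted p = 0.00722). The remaining CDC25C probe set changed by -0.29 ± 0.16 there and did not pass.

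**Figure D2:**
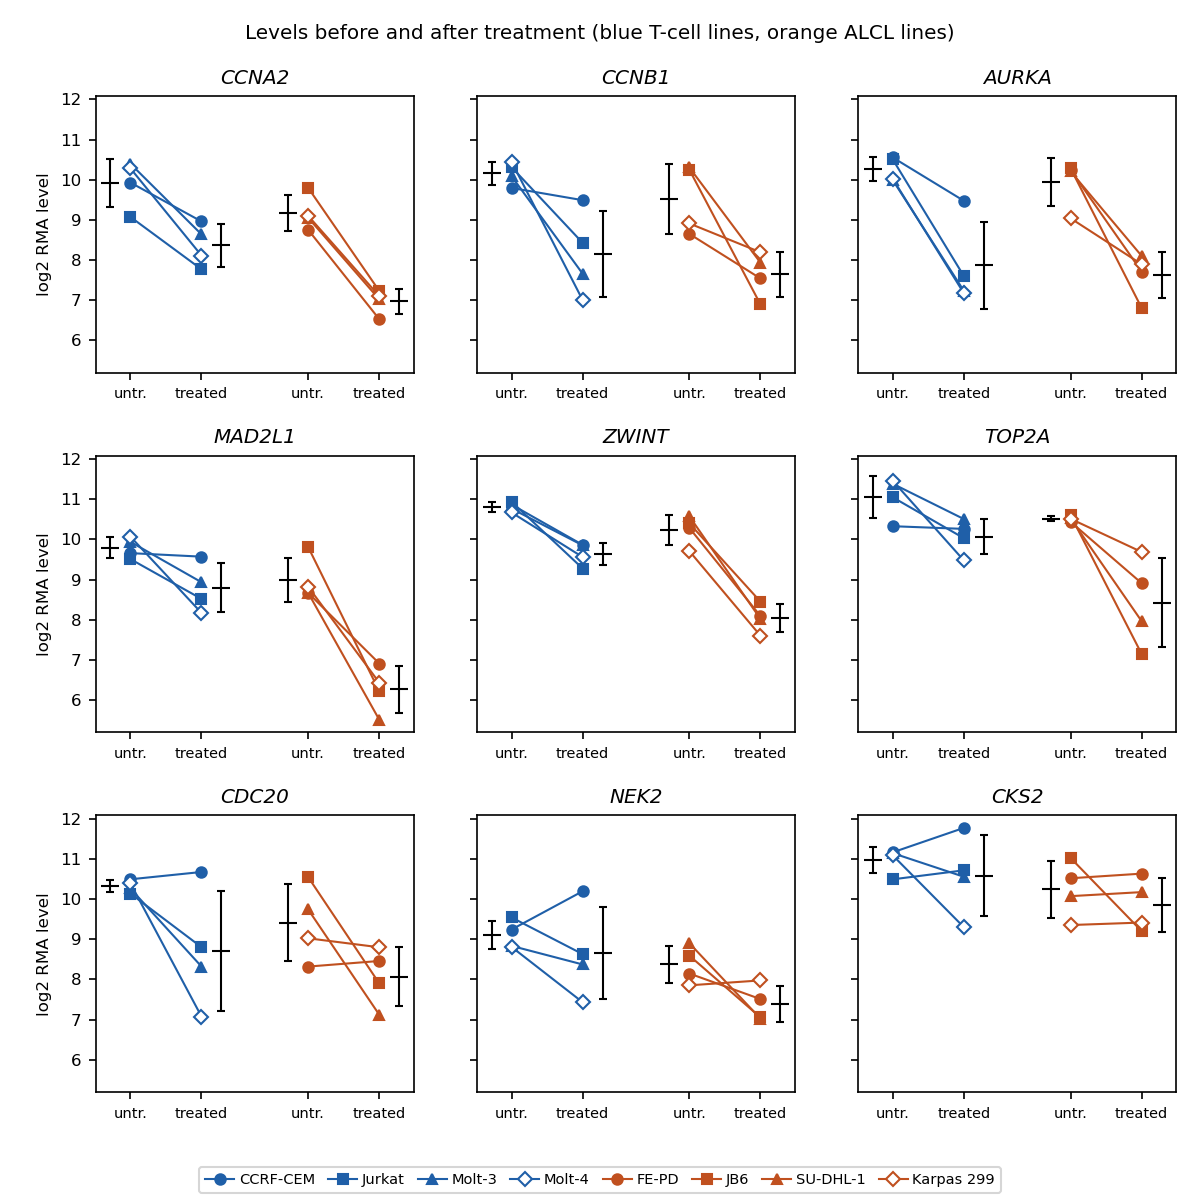
Log2 level of 9 mitotic genes on the untreated and treated array of each line, T-cell lines in blue and ALCL lines in orange, 1 line joining the 2 arrays of a cell line; black bars give the mean ± SD of 4 lines. CCNA2 and ZWINT fall in every line, whereas CKS2, NEK2 and CDC20 rise in CCRF-CEM.

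The spindle checkpoint genes fell as a whole group, 5 of 5 members in each cell type, with a median of -1.43 in T-cell lines and -1.97 in ALCL lines. Of the 1333 genes at the members' level, 669 fell in T-cell lines and 488 in ALCL lines. MAD2L1, the checkpoint protein that inhibits CDC20, was 9.66, 9.51, 9.94 and 10.07 untreated and 9.57, 8.52, 8.93 and 8.17 treated in the T-cell lines. In the ALCL lines it was 8.67, 9.81, 8.67 and 8.82 untreated and 6.91, 6.22, 5.51 and 6.43 treated. All treated ALCL values lay below every other array, and MAD2L1 changed by -2.72 ± 0.32 there (adjusted p = 0.000517) and by -1.0 ± 0.32 in T-cell lines (2.00-fold, adjusted p = 0.0304). The difference between these changes, -1.73 ± 0.45, did not pass (adjusted p = 0.105).

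BUB1B, the checkpoint protein BubR1, was 10.48, 9.71, 10.12 and 10.01 untreated and 9.69, 8.47, 8.0 and 7.56 treated in T-cell lines, and 9.02, 9.45, 9.39 and 8.93 untreated and 7.26, 6.48, 6.74 and 7.89 treated in ALCL lines. Treated and untreated values did not overlap in either cell type, with changes of -1.65 ± 0.33 and -2.1 ± 0.33. TTK, the kinase that starts checkpoint signalling, changed by -1.43 ± 0.31 and -1.97 ± 0.31. BUB1, a kinetochore kinase, changed by -1.48 ± 0.43 and -1.87 ± 0.43, although it did not fall in CCRF-CEM (9.0 untreated, 9.09 treated). BUB3, their binding partner, showed the smallest changes of the 5, -0.88 ± 0.32 and -1.39 ± 0.32. In T-cell lines the BUB3 call was lost in 10 of 20 alternatives, that of BUB1 in 6, MAD2L1 in 5, TTK in 1 and BUB1B in 0.

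Of the 4 mitotic kinases, AURKA, AURKB and PLK1 fell in both cell types and NEK2 in neither. AURKA, which acts at centrosomes, was 10.55, 10.51, 9.99 and 10.02 untreated and 9.48, 7.6, 7.23 and 7.18 treated in T-cell lines and 10.25, 10.29, 10.21 and 9.04 untreated and 7.71, 6.81, 8.1 and 7.9 treated in ALCL lines. It changed by -2.4 ± 0.37 in T-cell lines (5.27-fold, adjusted p = 0.00117) and by -2.32 ± 0.37 in ALCL lines. Even here CCRF-CEM, at 9.48 after treatment, stayed well above the other treated lines. AURKB, the kinase of the chromosomal passenger complex, was 9.35, 9.15, 9.41 and 9.2 untreated and 8.56, 7.07, 7.44 and 6.36 treated in T-cell lines, and 9.07, 9.42, 9.4 and 8.3 untreated and 6.35, 6.23, 6.24 and 6.03 treated in ALCL lines. Its change in ALCL lines, -2.84 ± 0.28 (adjusted p = 0.000241), ended with the 4 treated lines close together, and in T-cell lines it was -1.92 ± 0.28.

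PLK1, which acts from mitotic entry to cytokinesis, changed by -1.61 ± 0.31 and -1.33 ± 0.31. NEK2, a centrosome-separation kinase, was 9.24, 9.54, 8.83 and 8.81 untreated and 10.19, 8.63, 8.37 and 7.43 treated in T-cell lines. CCRF-CEM was higher after treatment and the other 3 lines were lower, giving -0.45 ± 0.38 (adjusted p = 0.349). In ALCL lines the NEK2 change was -0.98 ± 0.38 (adjusted p = 0.0952), with Karpas 299 slightly higher.

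Among 6 kinesin motors 4 fell in T-cell lines and 5 in ALCL lines. KIF11, the motor that separates the spindle poles, was 8.75, 9.08, 9.7 and 9.57 untreated and 8.69, 7.81, 8.01 and 6.99 treated in T-cell lines, and 7.82, 8.78, 8.5 and 7.52 untreated and 5.76, 5.2, 5.12 and 5.64 treated in ALCL lines. The treated ALCL lines were again below every other array, and KIF11 changed by -2.72 ± 0.39 there and -1.4 ± 0.39 in T-cell lines. The difference of -1.32 ± 0.55 did not pass (adjusted p = 0.341). KIF2C, a microtubule depolymerase at centromeres, was 9.95, 10.08, 10.37 and 10.29 untreated and 10.2, 9.45, 9.9 and 9.25 treated in T-cell lines, overlapping values with a change of -0.47 ± 0.29 (adjusted p = 0.198). KIF2C in the ALCL lines was 9.51, 9.88, 10.09 and 9.69 untreated and 8.13, 7.27, 7.79 and 8.85 treated, which did not overlap, and changed by -1.78 ± 0.29 (adjusted p = 0.00235); the difference, -1.31 ± 0.41, did not pass (adjusted p = 0.178).

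KIF20A, KIF23 and KIF4A, motors of the central spindle and chromosomes, changed by -1.45 ± 0.45, -1.17 ± 0.26 and -0.9 ± 0.19 in T-cell lines and by -2.3 ± 0.45, -1.12 ± 0.26 and -1.14 ± 0.19 in ALCL lines. KIF20A in JB6 went from 9.94 to 6.13. CENPE, a kinetochore motor, changed by -0.52 ± 0.29 and -0.71 ± 0.29, neither of which passed.

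Centromere and kinetochore genes fell in 4 of 4 cases in T-cell lines and 3 of 4 in ALCL lines. NDC80, which binds microtubules at the outer kinetochore, was 8.41, 8.51, 8.43 and 8.13 untreated and 7.86, 5.9, 5.29 and 4.92 treated in T-cell lines, and 7.18, 8.29, 8.09 and 7.61 untreated and 5.14, 4.98, 4.8 and 5.65 treated in ALCL lines. It changed by -2.37 ± 0.41 (adjusted p = 0.00209) and -2.65 ± 0.41 (adjusted p = 0.00198), and CCRF-CEM at 7.86 was the one treated array that stayed near untreated levels.

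ZWINT, a kinetochore scaffold, was 10.77, 10.94, 10.87 and 10.67 untreated and 9.85, 9.28, 9.86 and 9.56 treated in T-cell lines. In ALCL lines it was 10.29, 10.4, 10.57 and 9.71 untreated and 8.09, 8.45, 8.02 and 7.6 treated. The 8 lines changed evenly within each type, by -0.91 to -1.66 in T-cell lines and by -1.95 to -2.56 in ALCL lines, and these ranges did not overlap. ZWINT was the 1 member whose change differed between the cell types, by -1.03 ± 0.22 (adjusted p = 0.0475), where 0.568% of all genes fell further in ALCL lines and 1.11% the other way. That call was lost in 15 of 19 alternatives, with adjusted p from 0.0271 to 1, among them leaving out any line except Jurkat. CENPF, a kinetochore protein of G2 cells, changed by -1.65 ± 0.35 and -1.49 ± 0.35. CENPA, the centromeric histone, fell by 0.79 in T-cell lines, and in ALCL lines its change was -0.77 ± 0.28 (adjusted p = 0.0722), although its treated and untreated ALCL values did not overlap.

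Spindle assembly genes fell in 4 of 6 cases in T-cell lines and 6 of 6 in ALCL lines. TPX2, which activates AURKA on the spindle, was 11.03, 11.62, 11.45 and 11.38 untreated and 10.68, 9.95, 9.61 and 9.22 treated in T-cell lines and 9.97, 11.03, 10.71 and 9.86 untreated and 8.5, 8.11, 8.77 and 9.37 treated in ALCL lines. Groups were separate in both, and TPX2 changed by -1.51 ± 0.37 and -1.71 ± 0.37. DLGAP5, a spindle-stabilising protein, changed by -1.54 ± 0.57 in T-cell lines (adjusted p = 0.0537) from a rise of 0.09 in CCRF-CEM to a fall to 7.05 in Molt-4, and by -2.28 ± 0.57 in ALCL lines (adjusted p = 0.0195). NUSAP1, which bundles spindle microtubules, changed by -0.64 ± 0.33 (adjusted p = 0.135) and -1.71 ± 0.33 (adjusted p = 0.0056). PRC1, ASPM and TACC3, which organise the central spindle and the poles, changed by -1.2 ± 0.28, -1.54 ± 0.42 and -0.9 ± 0.31 in T-cell lines and by -1.66 ± 0.28, -2.14 ± 0.42 and -1.46 ± 0.31 in ALCL lines.

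The anaphase and chromosome genes fell in 5 of 7 cases in each cell type. CDC20, the activator of the anaphase-promoting complex, was 10.49, 10.14, 10.26 and 10.4 untreated and 10.67, 8.8, 8.32 and 7.08 treated in T-cell lines, and 8.32, 10.55, 9.74 and 9.02 untreated and 8.46, 7.9, 7.12 and 8.8 treated in ALCL lines. Its change ranged from slightly above 0 in CCRF-CEM and FE-PD to below -3 in Molt-4, so that -1.6 ± 0.58 in T-cell lines passed narrowly (adjusted p = 0.0481) and -1.34 ± 0.58 in ALCL lines did not (adjusted p = 0.127). UBE2C, the ubiquitin-conjugating enzyme of that complex, changed by -1.64 ± 0.36 and -1.91 ± 0.36. ESPL1, the protease separase, changed by -0.99 ± 0.25 and -1.41 ± 0.25.

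PTTG1, securin, was 10.79, 11.6, 11.72 and 11.69 untreated and 11.52, 11.2, 10.66 and 10.42 treated in T-cell lines and 11.02, 11.61, 11.45 and 10.92 untreated and 10.41, 10.66, 11.01 and 11.16 treated in ALCL lines. The groups overlapped, with CCRF-CEM and Karpas 299 higher after treatment, and the changes of -0.5 ± 0.30 and -0.44 ± 0.30 did not pass. TOP2A, the topoisomerase that untangles sister chromatids, was 10.33, 11.05, 11.39 and 11.46 untreated and 10.26, 10.03, 10.51 and 9.48 treated in T-cell lines, a change of -0.99 ± 0.40 (adjusted p = 0.067). In ALCL lines TOP2A was 10.44, 10.6, 10.52 and 10.51 untreated and 8.91, 7.15, 7.96 and 9.69 treated, nearly equal before treatment and spread over more than 2 units after it, a change of -2.09 ± 0.40 (adjusted p = 0.00506). BIRC5, survivin, and MKI67, the proliferation marker Ki-67, changed by -1.21 ± 0.23 and -0.99 ± 0.22 in T-cell lines and by -1.1 ± 0.23 and -1.43 ± 0.22 in ALCL lines.

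**Figure D3:**
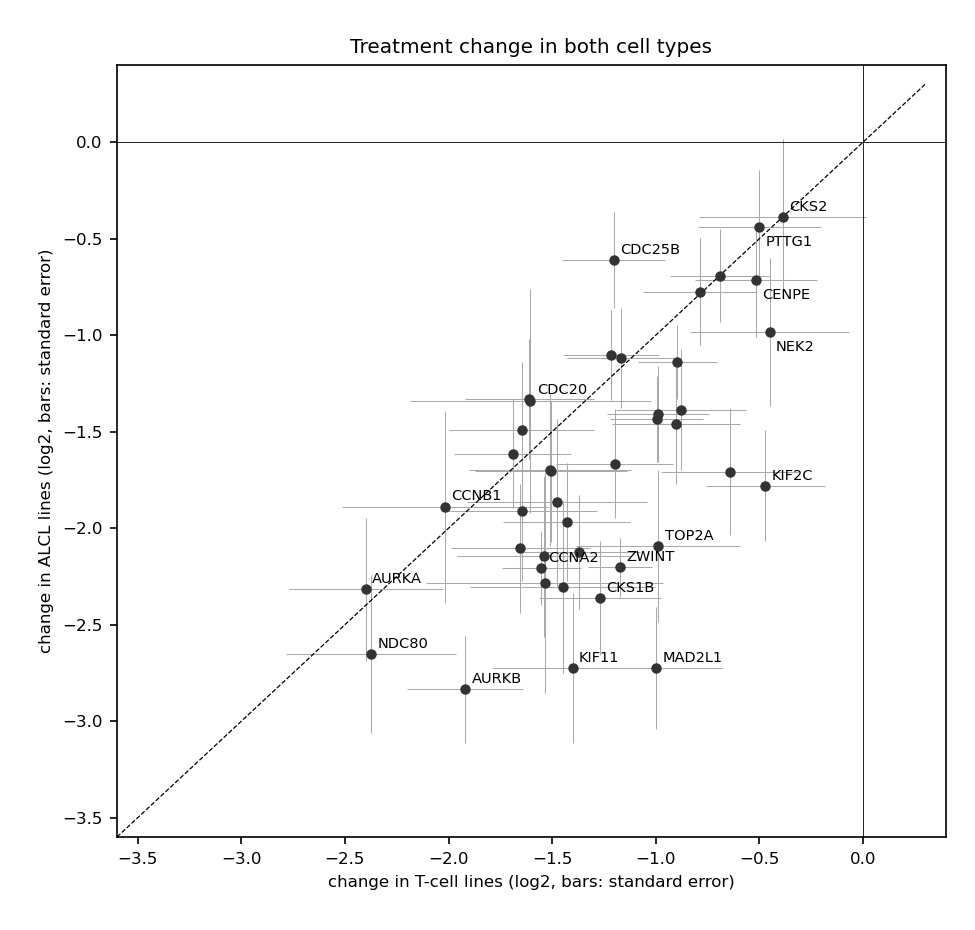
Mean treatment change of each of the 41 mitotic genes in T-cell lines (x axis) against ALCL lines (y axis), log2 with standard errors; the dashed line marks equal change. All 41 points are below 0 on both axes, and 29 lie below the dashed line.

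The lines differed widely in how far the whole group moved. The median member change was -0.28 in CCRF-CEM, -1.33 in Jurkat, -1.54 in Molt-3 and -1.90 in Molt-4. Among ALCL lines it was -0.76 in Karpas 299, -1.37 in FE-PD, -2.09 in SU-DHL-1 and -2.44 in JB6. At least a 2-fold fall was seen for 1 member in CCRF-CEM and 12 in Karpas 299, for 30 each in Jurkat and FE-PD, and for 32 to 40 in Molt-3, SU-DHL-1, JB6 and Molt-4. Over all genes, a 2-fold fall was seen for 4.24% in Karpas 299 and 14.8% in Molt-4, the lowest and highest of the lines.

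CCRF-CEM stood apart in the mitotic genes but not in the number of genes that fell. Its 41 members comprised 29 lower and 12 higher values, from -1.08 for AURKA to 0.95 for NEK2. Its median of -0.28 was close to the -0.34 of genes of like level on the same arrays, whereas in the other 7 lines the member median was lower than that of like genes, for example -1.33 against -0.37 in Jurkat and -0.76 against -0.20 in Karpas 299. In CCRF-CEM 7.38% of all genes fell at least 2-fold, more than the 5.37% in FE-PD, where 30 members did. Medians by role in CCRF-CEM were -0.77 for the 4 kinases and -0.10 to -0.43 for the other 6 roles. With 1 array per condition in each line, these differences between lines have no replicate check.

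**Figure D4:**
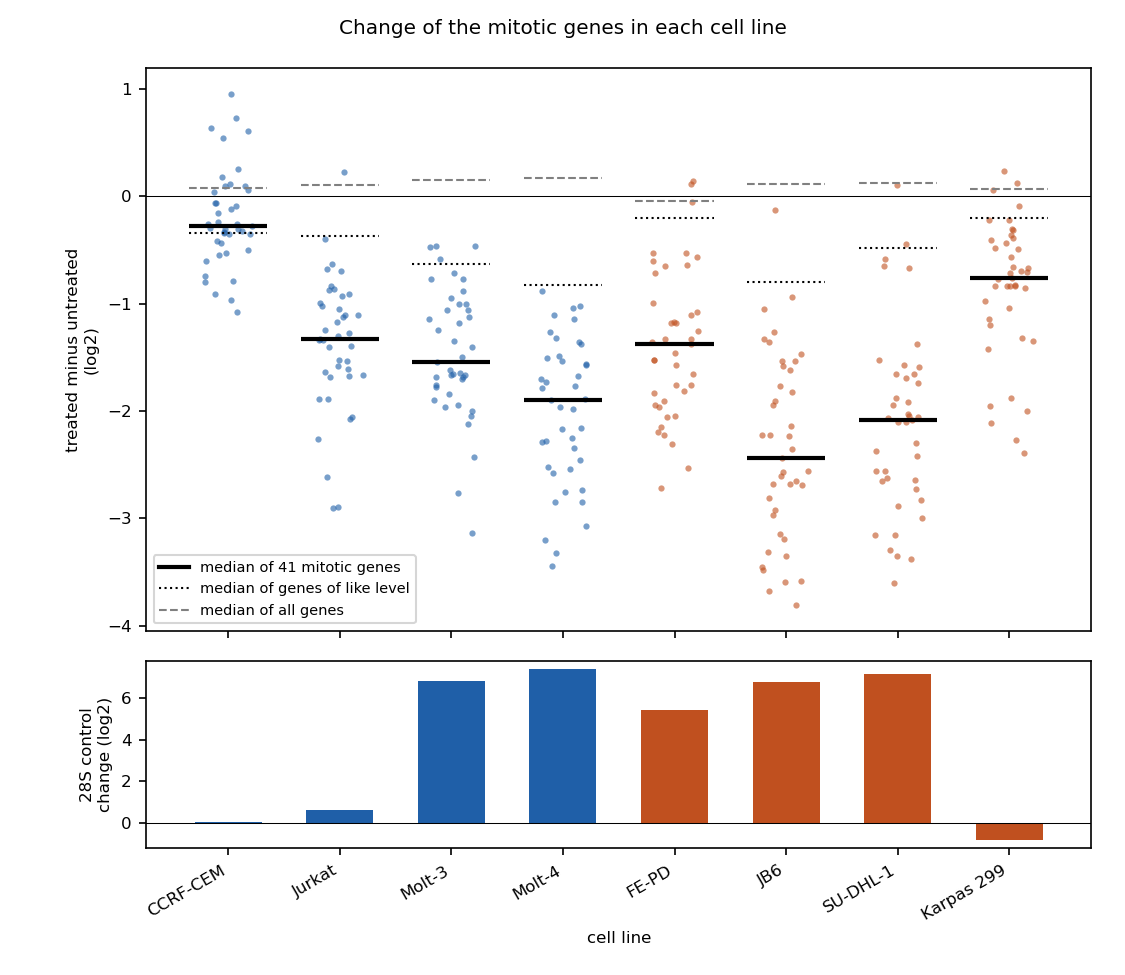
Upper panel, treated minus untreated log2 difference of the 41 mitotic genes (points) in each line, with their median (thick bar), the median of 1333 genes of like level (dotted) and of all genes (dashed); lower panel, change of the 28S ribosomal RNA control on the same arrays. In CCRF-CEM the thick bar lies at the dotted one; the 5 lines with a 28S rise have member medians of -1.37 to -2.44.

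The fall of the mitotic genes was larger in the lines whose treated array showed the 28S rise. In the T-cell lines the median member change was -1.73 with the rise (Molt-3, Molt-4) and -0.77 without it (CCRF-CEM, Jurkat), and 39 of 41 members were lower with it. In the ALCL lines it was -2.09 with the rise (FE-PD, JB6, SU-DHL-1) and -0.76 without it (Karpas 299), and all 41 members were lower with it. Genes of like level also fell further on most arrays with the rise. Their median was -0.64 in Molt-3, -0.83 in Molt-4, -0.80 in JB6, -0.48 in SU-DHL-1 and -0.20 in FE-PD. Without the rise it was -0.34 in CCRF-CEM, -0.37 in Jurkat and -0.20 in Karpas 299. The ACTB 3′ minus 5′ difference changed by 0.45 to 1.13 on arrays with the 28S rise and by -0.09 to 0.47 on the others. The mean of the hybridization spike controls changed by 0.01 to 1.35 and by -0.35 to 0.55. The SD of all values changed by -0.30 to -0.02 with the rise and by -0.12 to -0.06 without it. Jurkat, without a 28S rise, had a member median of -1.33, close to the -1.37 of FE-PD, which had one. Among the 3 lines without it the fit called 3 members in T-cell lines (BUB1B, CCNA2 and ZWINT) and 0 in Karpas 299 as the lone ALCL line, whose spread was assumed to be that of the T-cell lines. With the 5 others alone 36 and 37 fell. The part of the 28S signal in the fall was not tested.

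Leaving out 1 line changed the T-cell count most. Without Molt-4 17 members fell in T-cell lines and without Molt-3 19, while without CCRF-CEM 37 did. The ALCL count stayed between 25 (without JB6 or without SU-DHL-1) and 37 (without CCRF-CEM).

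Untreated ALCL lines tended to have lower mitotic gene levels than untreated T-cell lines. All 41 mean differences (ALCL minus T-cell) were below 0, with a median of -0.68, while the median was 0.04 over all genes and -0.22 over the 1333 genes of like level (900 below 0, 114 lower and 50 higher by the test). In this comparison 6 members were lower and 0 higher, against 5.58% and 3.18% of all genes. These were CDC25B (-1.55 ± 0.26, adjusted p = 0.0105), FOXM1 (-0.99 ± 0.14, adjusted p = 0.00613), TACC3 (-0.94 ± 0.17, adjusted p = 0.0163), BUB1B (-0.88 ± 0.19, adjusted p = 0.0289), CENPF (-0.87 ± 0.20, adjusted p = 0.0362) and PRC1 (-0.68 ± 0.14, adjusted p = 0.0251). TACC3 illustrates them, at 9.95, 9.98, 9.93 and 10.01 in T-cell lines and 8.95, 9.47, 9.08 and 8.59 in ALCL lines, with no overlap. For 11 members every untreated ALCL line was below every untreated T-cell line, against 9.74% of all genes. Without Molt-3 or without Molt-4 2 members passed, and scaled to the spike controls 0 passed, 36 of 41 were below 0 and the median was -0.34. Over all genes the split of lower and higher was then 188 and 565 in place of 668 and 380.

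After treatment the difference was wider on average. The median was -1.07, against -0.09 for the genes of like level (39 lower and 25 higher), all 41 differences were below 0, and 7 members were lower and 0 higher, against 1.53% and 1.35% of all genes. The 7 were MAD2L1 (-2.53 ± 0.36, adjusted p = 0.00741), KIF11 (-2.45 ± 0.33, adjusted p = 0.00618), CKS1B (-1.71 ± 0.36, adjusted p = 0.0392), CDK1 (-1.69 ± 0.21, adjusted p = 0.00397), KIF2C (-1.69 ± 0.34, adjusted p = 0.0338), ZWINT (-1.6 ± 0.22, adjusted p = 0.00604) and CCNA2 (-1.4 ± 0.27, adjusted p = 0.0303). None of these 7 passed in the untreated lines. CDK1 shows the pattern, at 10.06, 11.18, 11.1 and 10.97 in untreated T-cell lines and 9.76, 10.55, 10.35 and 8.89 in untreated ALCL lines, which overlap, and at 9.71, 9.59, 9.44 and 9.08 in treated T-cell lines and 7.82, 8.2, 7.36 and 7.69 in treated ALCL lines, which do not. Every treated ALCL line was below every treated T-cell line for 13 members, against 5.85% of all genes.

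These differences share their arrays with the treatment comparisons and are not independent of them. The count was 4 without FE-PD, SU-DHL-1, CCRF-CEM or Molt-3, and 2 with scaling to the spike controls (38 of 41 below 0, all genes 21 lower and 272 higher in place of 183 and 162). It was 11 with quantile normalization and 15 with the reference genes, and 0 within the lines with or without the 28S rise. The size of the difference changed less than the count, since the member median was -0.86 within the 5 lines with the rise (36 of 41 below 0) and -0.93 within the 3 lines without it (40 of 41 below 0). The change with treatment was more negative in ALCL than in T-cell lines for 29 of 41 members, with a median difference of -0.42, but apart from ZWINT no single difference passed. Over all genes the split of more negative and more positive changes in ALCL lines was 68 and 133, and 15 and 49 with the spike controls. The median difference was 0.02 among the 3 lines without the 28S rise and -0.06 without CCRF-CEM.

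**Figure D5:**
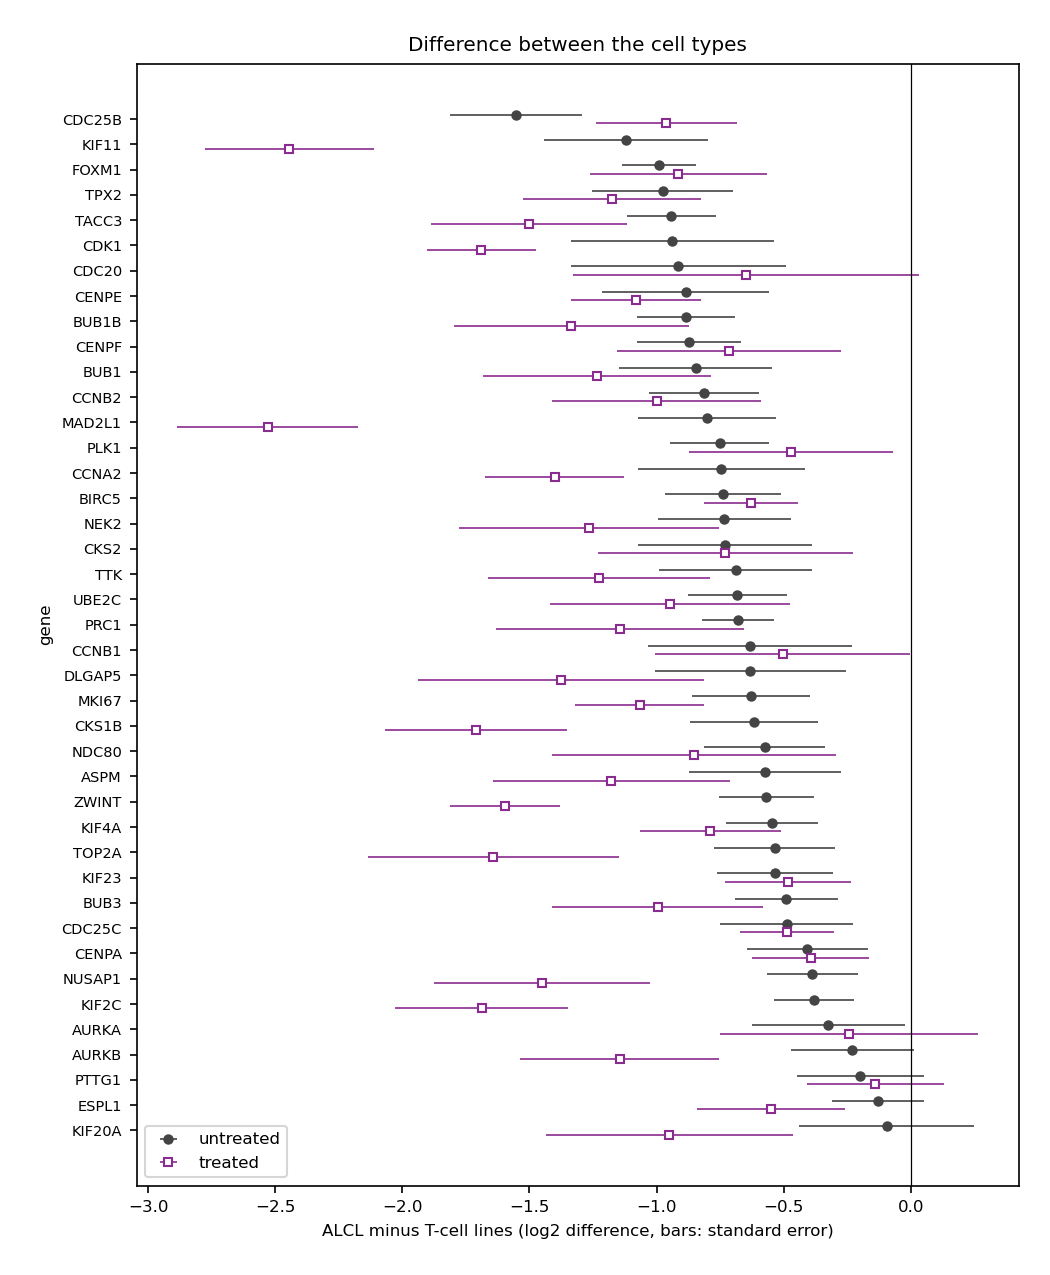
ALCL minus T-cell log2 difference of each of the 41 mitotic genes with its standard error, in untreated lines (filled circles) and treated lines (open squares), n = 4 lines per cell type. Every point lies left of 0, and MAD2L1 and KIF11 move furthest left with treatment.

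Other genes of mitosis moved in the same direction, in lists compiled by function. For both lists below, the counts stand beside those of the 1333 genes at the members' level. Of these, 669 fell and 124 rose in T-cell lines (median -0.55), and 488 fell and 80 rose in ALCL lines (median -0.41). Of 17 cohesin and condensin genes, which hold and compact sister chromatids, 11 fell in T-cell lines (median -0.98) and 13 in ALCL lines (median -1.17), and 0 rose. STAG2, a cohesin subunit, changed by -2.85 ± 0.25 and -2.54 ± 0.25, and SMC2, a condensin subunit, by -1.85 ± 0.27 and -1.81 ± 0.27. Of 32 genes of other mitotic machinery 19 fell and 1 rose in T-cell lines (median -0.80), and 22 fell in ALCL lines (median -1.33). Among them SPC25, the partner of NDC80 in its complex, changed by -2.31 ± 0.34 and -2.91 ± 0.34, and LMNB1, lamin B1 of the nuclear envelope, by -2.02 ± 0.27 and -2.48 ± 0.27. The single gene of this list that rose was KNTC1 (1.1 ± 0.24), named after its value was seen.

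The anaphase-promoting complex itself had medians nearer 0. Of its 12 measured subunits and regulators 6 fell and 1 rose in T-cell lines (median -0.44) and 3 fell in ALCL lines (median -0.40). Both medians were close to the -0.55 and -0.41 of the 1333 genes at the members' level, of which 669 and 488 fell. FBXO5, the inhibitor EMI1, changed by -1.99 ± 0.31 and -2.15 ± 0.31, and CDC23, a core subunit, by -1.13 ± 0.21 and -1.34 ± 0.21. The gene that rose was ANAPC2 (0.59 ± 0.14), also named after its value was seen.

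Genes that control G2 entry fell in 4 of 8 cases in each cell type, with medians of -0.62 and -0.78. In T-cell lines this was near the share among genes at the members' level (669 of 1333, median -0.55). In ALCL lines 488 of those 1333 genes fell (median -0.41). WEE1, the kinase that inhibits CDK1, changed by -1.68 ± 0.15 and -1.09 ± 0.15, and CHEK1, the DNA damage checkpoint kinase, by -1.84 ± 0.17 and -1.39 ± 0.17. CDC25A, which opposes WEE1, changed by -1.1 ± 0.18 and -1.45 ± 0.18. Thus both activators and inhibitors of CDK1 were among the genes that fell.

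Of 18 measured regulators in the DREAM, E2F and B-MYB list 11 fell in T-cell lines (median -0.71) and 7 in ALCL lines (median -0.25). Among the 1333 genes at the members' level 669 and 488 fell, with medians of -0.55 and -0.41. E2F8, a repressor of the E2F family, changed by -1.85 ± 0.16 and -1.65 ± 0.16. NFYB and NFYC, subunits of the CCAAT-binding factor NF-Y, changed by -1.12 ± 0.19 and -1.5 ± 0.19 in T-cell lines and by -0.88 ± 0.19 and -1.16 ± 0.19 in ALCL lines. TFDP2, a dimer partner of E2F factors, fell in T-cell lines (-1.47 ± 0.22) but not in ALCL lines (0.32 ± 0.22), and this difference passed (1.79 ± 0.32, adjusted p = 0.0217).

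Of 9 measured p53 targets that slow the cycle, 3 rose and 1 fell in each cell type, with medians of 0.33 and 0.35. Over all genes 21.7% rose and 20.2% fell in T-cell lines, with a median of 0.14, and 8.04% rose and 13.4% fell in ALCL lines, with a median of 0.09. CDKN1A, the CDK inhibitor p21, rose by 1.44 ± 0.29 in T-cell lines (adjusted p = 0.00457) and by 1.55 ± 0.29 in ALCL lines (adjusted p = 0.00501). With scaling to the spike controls CDKN1A was 0.76 and 0.94 higher and no longer passed (adjusted p = 0.207 and 0.117). CCNG1, the gene that fell, changed by -1.27 ± 0.25 and -0.96 ± 0.25.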

How the data were processed

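RNA of 8 cell lines, untreated and treated, was hybridised to 16 Affymetrix HG-U133A arrays, 1 per line and condition. The deposited table holds log2 values per probe set. Per the submitters' processing notes they come from RMA, run in R 2.10.1. For the background step, the probe definitions and the detection calls the settings were not given in the sources used here. RMA estimates each probe set over all arrays together, and no value carries a per-spot error, so the number of lines limits the precision. The log2 values ran from 3.36 to 14.42, and array medians from 6.78 to 6.96.

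Of 22283 probe sets, 19071 carried 1 gene symbol in GEO's platform annotation, giving 11963 genes. For the 4310 genes with several probe sets the one with the highest mean was used. Treatment effects in each cell type and their difference were fitted in limma 3.58.1 (R 4.3.3; lmFit, eBayes) on 16 arrays with cell line as a block (6 residual degrees of freedom). ALCL and T-cell lines were compared on 8 untreated and 8 treated arrays. P-values were adjusted by Benjamini-Hochberg over 11963 genes, at a threshold of 0.05. The labels pair the 2 arrays of a line. The deviations of the 2 arrays from their group means correlated by 0.33 to 0.64, above the correlation with any other line except for Molt-4 (0.33 with its own, at most 0.40 with another line). Lines were cultured separately, but each condition was sampled once per line. The p-values of treatment therefore measure the spread of the change between lines, pooled over both cell types. Those between the cell types measure the spread of levels between lines. Spread between arrays cannot be told apart from either.

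The members, pathway lists and motifs were chosen with earlier results of these data known. Any of the 41 members may be named. From each pathway list, up to 4 genes with the smallest adjusted p for treatment in T-cell lines may be named, together with CDKN1A. Exceptions are stated. The alternatives covered the block, the choice and filter of probe sets, 4 scalings, the variance prior, subsets of lines by the 28S control (a rise over 3 log2 units) and leaving out each line.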

Additional observations from a re-analysis of the deposited data

Results flagged for a closer look

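Among 246 sets of 4 lines examined (untreated level, treated level or change of each member in each cell type), 13 held 1 line whose gap to the nearest other line was large for the range of the 4 (5.28%), and chance alone does so in about 1 in 20. CCRF-CEM was the odd line in 5 of the 13. Its untreated levels of CDC25B (10.31, others 10.91 to 10.99) and PTTG1 (10.79, others 11.60 to 11.72) were low. Its changes of CDC25C (0.038, others -1.06 to -0.87), AURKA (-1.08, others -2.91 to -2.76) and KIF4A (-0.31, others -1.13 to -1.03) were small. Untreated Jurkat was low in CKS2 (10.49, others 11.09 to 11.16) and high in BUB3 (11.48, others 10.99 to 11.06).

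Untreated JB6 was high in FOXM1 (8.77, others 8.40 to 8.46) and MAD2L1 (9.81, others 8.67 to 8.82), and its CKS2 changed by -1.82 (others 0.06 to 0.12). Karpas 299 was low in untreated AURKA (9.04, others 10.21 to 10.29), and its UBE2C changed by -0.67 (others -2.42 to -2.24). Treated SU-DHL-1 was low in KIF23 (4.03, others 4.58 to 4.68). The treatment change of ZWINT differed between ALCL and T-cell lines by -1.03 in the limma interaction test (adjusted p = 0.0475), with a greater fall in 4 of 4 ALCL lines than in any T-cell line.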

How the results depend on the processing

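Across 20 alternatives no member called lower with treatment reversed its direction. Of 33 called members in each cell type, 3 in T-cell lines (BUB1B, CCNA2, ZWINT) and 0 in ALCL lines kept the call in every alternative, while 14 and 24 lost it only among the 3 lines without the 28S rise, where 3 and 0 members passed, few lines remain and the ALCL median was -0.76. There the median difference of changes between the cell types turned to 0.015, and the untreated median difference was -1.07. Counts of members falling in T-cell lines ran from 17 to 37 with 1 line left out. With 1 line left out, the difference of changes was called for 0 to 1 members, the untreated difference for 2 to 9 and the treated difference for 4 to 6. Without the replicate block on cell line 32 members fell in T-cell lines, 33 in ALCL lines and 0 differed between them. That last count was also 0 with quantile normalization, median centring, spike controls, the trended robust prior, and the lines with or without the 28S rise. The untreated difference was called for 0 members with the spike controls (median -0.34), 0 without and 1 with the 28S rise. The treated difference was called for 11 with quantile normalization, 15 with reference genes, 2 with spike controls and 0 with or without the 28S rise; the cause was not tested.

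Each line and condition has 1 array, no cell counts or cell cycle fractions were used, and levels near an array's background cannot be told from absence without detection calls.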
